A study of Mus musculus with 16 samples.

Results

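The genes described here build ribosomes. They encode the subunits of RNA polymerase I and the nucleolar proteins that process its transcript and assemble the ribosomal subunits, and they were measured in the livers of old male C57BL/6 mice fed metformin intermittently. Members were the probes of the expression array whose gene symbol matched a fixed pattern of names (Polr1a to Polr1e, Nop, Utp, Rrp, Nol and Exosc with a number, Imp3, Imp4, Gnl2, Gnl3 and single symbols such as Npm1, Ncl and Fbl). The pattern matched 91 of the 25697 probes, for 64 genes. Of these, 65 probes for 48 genes were detected on every array of at least 1 diet group, against 11143 detected probes for 7816 named genes on the whole array. The pattern and the filter tested no difference between groups. Members were, however, chosen with earlier results of these data known, and a probe can pass the filter through 1 group alone. Symbols that the pattern takes in, Nol3, Nol4 and Nol4l, have no known role in making ribosomes, and none of these had a detected probe.

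Mice were bought at 104 weeks of age and were kept for a month on the purified diet AIN-93G, which all groups went on eating. The EOW mice (n = 5) received 1% metformin in it every other week, the 2WM mice (n = 4) received 1% metformin for 2 consecutive weeks of each month, and the mice on the standard diet (SD, n = 4) received none, over 17 weeks. The study shows fewer EOW mice for its arrays than were deposited, and which EOW mouse it left out is not given in the sources used here. Total liver RNA was hybridised to Illumina BeadArrays, and 1 mouse of each group was run on 2 arrays, which were averaged. Levels are log2 signals scaled within each array and given relative to the mean of that array, so that a difference is a log2 fold change, and levels of different probes are not comparable with each other. Differences are EOW minus SD, 2WM minus SD or EOW minus 2WM from 1 limma fit over the 13 mice, with p-values adjusted by Benjamini-Hochberg over all 11143 probes, and errors after ± are SD between mice. EOW against SD and 2WM against SD share their SD mice. In whole liver, fewer cells of a type and less RNA per cell cannot be told apart.

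Ribosome production starts in the nucleolus. RNA polymerase I transcribes a long precursor that contains the 18S, 5.8S and 28S ribosomal RNAs, box C/D and box H/ACA particles modify it, the small subunit processome and the 60S assembly factors fold and cut it, and the RNA exosome trims its ends and degrades the spacers. The pathway is a large consumer of energy, is switched by growth signals through mTOR and Myc, and adapts the protein synthesis of the hepatocyte to nutrition and regrowth. Labelling with an oligo-dT primer read the messenger RNAs of this machinery, not the ribosomal RNA that it makes.

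One EOW liver has to be known before the results. EOW mouse 4 correlated at 0.841 to 0.888 with each other mouse across the detected probes, and the highest correlation of every other mouse was 0.968 to 0.991. The 3 detected T cell markers (Cd3d, Cd3e and Cd3g) summed to 31.4 in it on a linear scale, against 1.99 to 3.04 in the other 12 mice, while Cd8a, Gzma and Nkg7 were not detected by the group criterion. The neutrophil markers S100a8 and S100a9 summed to 27.8, against 3.16 to 20.4 in the others, and the 4 detected of 5 stellate cell and fibroblast markers (Col3a1, Dcn, Des and Lrat) summed to 93.7, against 32.3 to 66.2. The stellate and fibroblast sums were 47.5 to 93.7 over EOW mice, 46.1 to 54.8 over 2WM mice and 32.3 to 48.9 over SD mice, with overlap. In EOW against SD, 3 of these 4 markers had an unadjusted p below 0.05 (median difference 0.27). Of all probes, 5.59% were higher and 8.25% lower at that threshold, and none passed an adjusted p of 0.05. The 6 detected of 8 hepatocyte markers summed to 409, within the 392 to 714 of the others. This was the lowest EOW sum and below the 461 to 611 of the 2WM mice, and the median marker lay 0.32 below the mean of the others. The median sinusoidal endothelial and Kupffer cell markers lay 0.72 and 0.51 above it, with sums inside the range of the others. The 4 proliferation markers (Birc5, Ccnb2, Cdk1 and Top2a) failed the detection criterion. It needs every array of a group, so for these, as for Cd8a, Gzma and Nkg7, it does not show whether 1 liver expressed them. Median signals of the 16 arrays were 127.2 to 184.9, and 11457 to 12953 probes were detected on each. The main EOW results that follow are therefore given with and without this liver.

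Promoter sequence is shown for Polr1a, Mybbp1a, Gnl3 and Nop14, members with an unadjusted p below 0.05, and for Nop2 as a member that holds the Myc-type motif, to show what their regulatory sequences share and do not share. Of the 48 detected genes, 38 had an entry in the RefSeq promoter table for GRCm38.p6, which covers 250 bases before and 50 after the transcript start. Searched on both strands were the Myc-type E-box CACGTG (its own reverse complement), the ETS-type motif CCGGAAG, and the SP/KLF-type GC box GGGCGG. The lines below print the 130 bases before the start in the direction of transcription, with matches in capitals. Polr1a lies at chr6:71908923-71909052 (plus strand), Mybbp1a at chr11:72441197-72441326 (plus strand), Gnl3 at chr14:31019132-31019261 (minus strand), Nop14 at chr5:34660149-34660278 (minus strand) and Nop2 at chr6:125131753-125131882 (plus strand).
Polr1a: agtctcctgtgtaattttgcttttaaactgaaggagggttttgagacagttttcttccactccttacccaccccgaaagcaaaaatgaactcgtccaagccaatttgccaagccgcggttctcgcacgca
Mybbp1a: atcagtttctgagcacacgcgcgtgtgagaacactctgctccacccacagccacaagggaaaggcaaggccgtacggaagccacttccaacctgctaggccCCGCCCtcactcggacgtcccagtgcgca
Gnl3: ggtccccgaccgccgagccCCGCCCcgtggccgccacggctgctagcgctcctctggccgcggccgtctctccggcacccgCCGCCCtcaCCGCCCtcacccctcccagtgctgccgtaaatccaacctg
Nop14: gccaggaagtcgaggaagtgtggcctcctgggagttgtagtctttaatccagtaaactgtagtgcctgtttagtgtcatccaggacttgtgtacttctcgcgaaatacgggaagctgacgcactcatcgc
Nop2: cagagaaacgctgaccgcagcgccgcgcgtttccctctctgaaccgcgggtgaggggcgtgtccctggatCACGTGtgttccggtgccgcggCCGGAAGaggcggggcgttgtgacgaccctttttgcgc
Polr1a and Nop14 held none of the 3 motifs in these 130 bases, Mybbp1a held 1 GC box and Gnl3 held 3. Nop2, which encodes an RNA methyltransferase of 60S assembly, held 1 E-box and 1 ETS-type motif. Over the whole stretch of the table, 8 of 38 detected member genes held the E-box (21.1%), against 12.2% of the 6418 genes with a detected probe and a promoter and 8.09% of all 27025 genes of the table. The ETS-type motif was in 13 of the 38 (34.2%), against 20.7% of genes with a detected probe and 9.93% of all genes. The GC box was in 26 of the 38 (68.4%), against 67.4% and 38.2%. The E-box genes were Exosc5, Imp4, Mybbp1a, Nol11, Nop2, Pes1, Utp25 and Utp4. A match is a run of letters and not a measured binding site, and of the members with an unadjusted p below 0.05 over all mice, described next, Mybbp1a is among the 8, through a match outside the stretch printed, while Gnl2 and Npm1 had no entry and could not be searched.

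The median biogenesis gene lay slightly above SD in the EOW livers and close to SD in the 2WM livers. No member passed an adjusted p of 0.05 in any comparison, and neither did any other probe of the array (0% called in each of the 3 comparisons). In EOW against SD, 48 of the 65 probes had a positive difference (73.8%, against 44.8% of all detected probes) and their median was 0.10, against −0.03 over all detected probes. This median was 0.04 with arrays weighted by quality (37 positive), 0.04 with median centring (39 positive) and 0.17 with neqc background correction (49 positive). In 2WM against SD, 36 were positive (55.4%, against 43.2%) and the median was 0.02, against −0.03, a median that was −0.02 without 2WM mouse 2, −0.01 without SD mouse 3 and −0.02 without SD mouse 4. In EOW against 2WM, 46 were positive (70.8%, against 50.7%) and the median was 0.12, against 0.00. Both EOW counts include probes that passed the filter through EOW alone, such as Polr1a ILMN_2836664 and Rrp8. The sign of such a probe in EOW is tied to the filter. The same holds for the negative sign of Ebna1bp2 ILMN_1248210 in EOW against SD, which passed through SD alone.

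The shift was uneven between the EOW livers. The median member lay 0.39 above the SD mean in EOW mouse 4 and 0.02, 0.06, 0.05 and 0.08 above it in EOW mice 1, 2, 3 and 5. In the 2WM mice the median member was at −0.02, 0.11, −0.07 and −0.02, and in the SD mice at 0.11, 0.05, −0.07 and −0.07, so that the other 4 EOW mice lay within the span of the SD and 2WM mice. EOW mouse 4 held the highest of the 13 levels for 37 of the 65 member probes (56.9%, against 25.7% of all detected probes) and the lowest for 7 (10.8%, against 21.7%). Without it, the EOW median was 0.06 above SD with 40 of 65 probes positive (61.5%, against 42.1% of all), and 0.04 above 2WM with 44 positive (67.7%, against 47.9%). The T cell, neutrophil and stellate cell markers given above also had their highest sums in EOW mouse 4, and their part in these values was not tested.

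**Figure D1:**
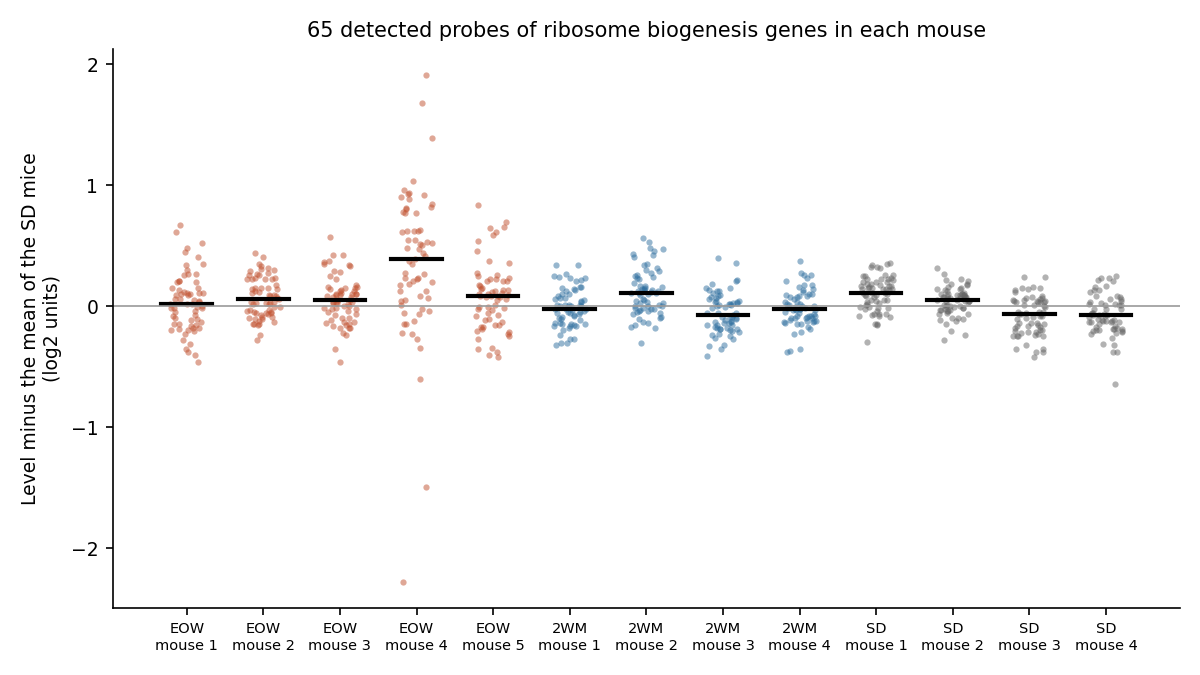
Each point is 1 of the 65 detected member probes, plotted for every mouse as its level minus the mean of the 4 SD mice (vertical axis, log2 units), with EOW mice on the left, 2WM mice in the middle and SD mice on the right; the black bar is the median. The bar of EOW mouse 4 is at 0.39 and those of the other 12 mice lie between −0.07 and 0.11.

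Single members with an unadjusted p below 0.05 were few. In EOW against SD they were 5 higher (7.69% of members, against 5.59% of all probes) and 0 lower (against 8.25%). In 2WM against SD they were 0 higher (against 2.23%) and 0 lower (against 3.71%). In EOW against 2WM they were 6 higher (9.23%, against 5.26%), for 5 genes, and 1 lower (1.54%, against 5.4%). Without EOW mouse 4 there were 6 higher (against 5.64%) and 2 lower (against 8.37%) in EOW against SD, and again 6 higher (against 5.3%) and 1 lower (against 5.72%) in EOW against 2WM, with adjusted calls in 0 members (against 0.00897% and 0% of all probes). The count in EOW against SD was 12 higher with quantile normalization (against 6.75% of all probes), 12 with neqc (against 6.71%) and 12 without SD mouse 1 (against 5.79%), and 3 with median centring (against 2.59%) or without SD mouse 3 (against 3.42%). The count in EOW against 2WM was 3 higher without 2WM mouse 1 and 1 without 2WM mouse 3 or without 2WM mouse 4. These counts stand without a share of all probes and are not a result about the members. By the criteria of the study's methods, which combine a z test at 0.05, a false discovery rate below 0.30, a z-ratio beyond 1.5 and a test over the 3 groups, 2 members were higher in EOW against SD, Gnl3 and Mybbp1a (3.08%, against 1.28% of all probes), and 0 were lower (against 1.88%), while in 2WM against SD 0 were higher (against 1.1%) and 0 lower (against 1.49%).

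**Figure D2:**
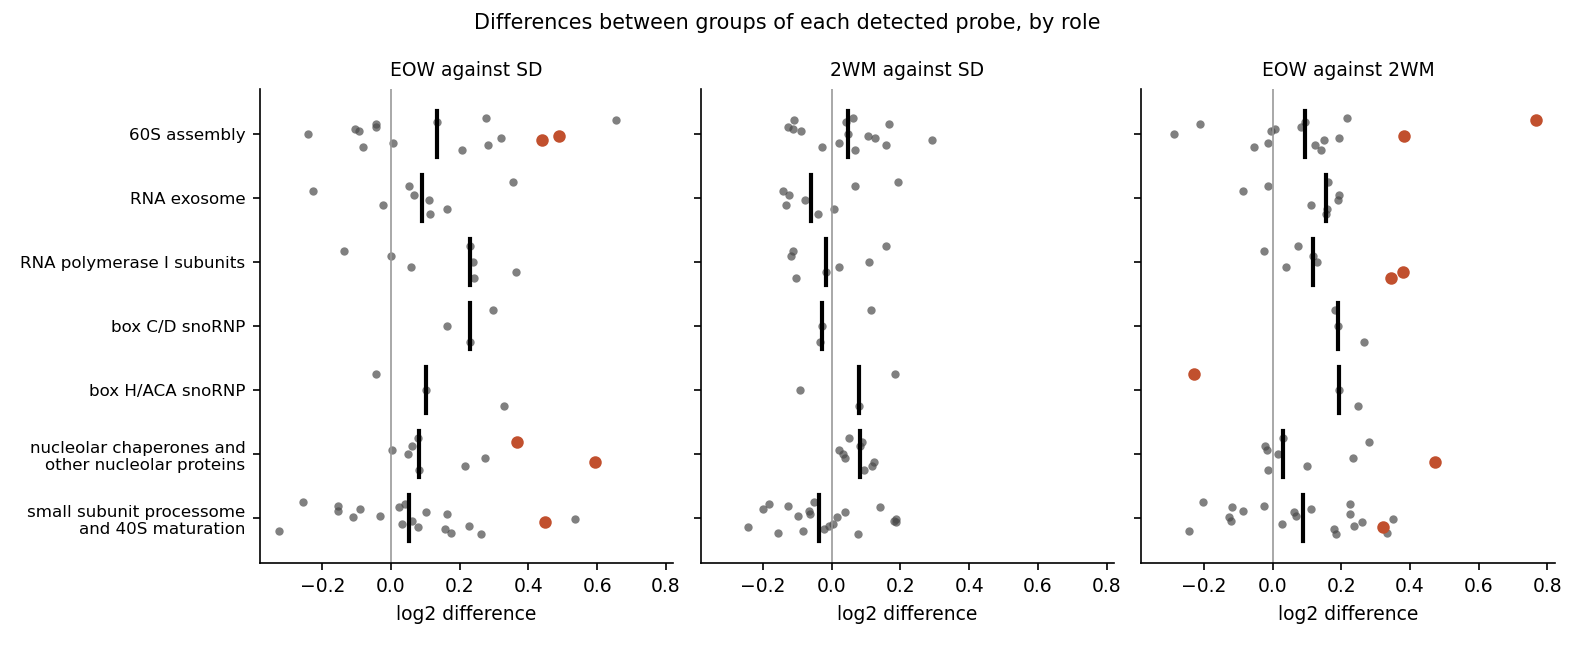
Each point is the log2 difference (horizontal axis) of 1 detected member probe, by role (vertical axis), in EOW against SD, 2WM against SD and EOW against 2WM; orange points have an unadjusted p below 0.05 and black bars are medians. Orange points number 5, 0 and 7, and in 2WM against SD the points lie between −0.24 and 0.29.

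RNA polymerase I itself was represented by 7 detected probes for Polr1a, Polr1c, Polr1d and Polr1e. Of these, Polr1a ILMN_2836664 passed the filter through EOW alone, so its sign in EOW is tied to the filter. The median difference of the 7 probes was 0.23 in EOW against SD, −0.02 in 2WM against SD and 0.12 in EOW against 2WM. It was 0.10 in EOW against SD without EOW mouse 4. Polr1a encodes the largest, catalytic subunit. Its probe ILMN_2620069 read 0.10, 0.02, −0.21, 0.26 and −0.19 in EOW mice, −0.24, −0.42, −0.47 and −0.26 in 2WM mice, and −0.02, −0.34, −0.38 and −0.23 in SD mice. All EOW mice lay above all 2WM mice and the SD mice overlapped both. The difference was 0.34 ± 0.11 (SE) against 2WM (unadjusted p = 0.0104, limma adjusted p = 0.322, exact permutation p = 0.0238) and 0.28 without EOW mouse 4, and 0.24 against SD (adjusted p = 0.374). With neqc background correction the difference from 2WM was 0.74. This was the only member with EOW wholly above 2WM (1.54% of members, against 1.99% of all probes), and 0 lay wholly below (against 1.97%).

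The other Polr1a probes gave smaller or less certain differences. ILMN_2700107 averaged 1.64 ± 0.18 in EOW, 1.25 ± 0.33 in 2WM and 1.27 ± 0.32 in SD mice, with overlapping groups and a difference of 0.38 from 2WM (unadjusted p = 0.0469, adjusted p = 0.463). ILMN_2836664 was detected on all 6 EOW arrays but on 2 of 5 2WM arrays and 4 of 5 SD arrays, so that it passed the filter through EOW alone, and averaged −0.58 ± 0.06 in EOW, −0.62 ± 0.17 in 2WM and −0.64 ± 0.06 in SD mice. Polr1c, a subunit shared with RNA polymerase III, averaged 1.47 ± 0.09 in EOW, 1.34 ± 0.28 in 2WM and 1.23 ± 0.25 in SD mice, with the EOW mice inside the range of the SD mice except for EOW mouse 3, and its difference from SD was 0.24 in EOW with EOW mouse 4 and 0.25 without it (adjusted p = 0.450 and 0.470). Polr1d, another such subunit, differed from SD by 0.00 (95% interval −0.24 to 0.24) at ILMN_2634720 and by −0.14 (−0.33 to 0.05) at ILMN_2680066 in EOW. Polr1e, a subunit of the heterodimer that helps the polymerase start and elongate, read 0.55 in EOW mouse 4 and −0.11, −0.10, −0.14 and −0.15 in the other EOW mice, beside a mean of −0.06 ± 0.08 in 2WM and −0.22 ± 0.14 in SD mice, so that its difference from SD was 0.23 in EOW with EOW mouse 4 and 0.10 without it.

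Among nucleolar chaperones and other nucleolar proteins, all 9 detected probes for 7 genes had a positive difference from SD in EOW (median 0.08) and in 2WM (median 0.08). Of all probes, 44.8% and 43.2% were positive. In EOW without mouse 4, 8 of 9 were positive (median 0.06, against 42.1% of all probes). EOW and 2WM share their SD mice here, and the median SE was 0.12 in EOW and 0.13 in 2WM. Among the 9 probes, that of Rrp8 passed the filter through its EOW arrays alone (6 of 6, against 2 of 5 in 2WM and 4 of 5 in SD), so its sign in EOW is tied to the filter. Mybbp1a, a nucleolar protein known to bind the RNA polymerase I machinery and p53, differed most. Its probe ILMN_2987339 read 1.92, 1.79, 2.05, 2.87 and 1.73 in EOW mice, 1.63, 1.83, 1.48 and 1.46 in 2WM mice, and 1.49, 1.46, 1.24 and 1.71 in SD mice. No EOW mouse overlapped the SD mice, though EOW mouse 5 was close to SD mouse 4, and the 2WM mice overlapped both. The difference from SD was 0.59 ± 0.20 (SE), or 1.51-fold (unadjusted p = 0.0111, adjusted p = 0.245, exact permutation p = 0.0238), and 0.40 without EOW mouse 4 (unadjusted p = 0.00576). The difference from 2WM was 0.47 (adjusted p = 0.433) and 0.27 without EOW mouse 4. The other probe of the gene, ILMN_1255110, differed from SD by 0.22 (adjusted p = 0.374).

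Npm1 encodes nucleophosmin, an abundant nucleolar chaperone of both ribosomal subunits. It read 4.54, 4.32, 4.55, 5.15 and 4.92 in EOW mice, 4.28, 4.44, 4.36 and 4.59 in 2WM mice, and 4.65, 4.09, 4.16 and 4.42 in SD mice, with overlapping groups. Its difference from SD was 0.37 in EOW (unadjusted p = 0.0454, adjusted p = 0.352), was 0.25 without EOW mouse 4 (unadjusted p = 0.103) and was 0.15 with arrays centred on their medians (unadjusted p = 0.394). Nucleolin, Ncl, a chaperone of the precursor RNA, differed from SD by 0.27 and 0.05 at its 2 probes in EOW with EOW mouse 4, by 0.13 and −0.07 without it, and by 0.04 and 0.03 in 2WM. Gnl3l, Nol7, Nol12 and Rrp8 differed from SD by 0.00 to 0.08 in EOW.

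The 60S assembly factors, 15 detected probes for 8 of 13 genes, had a median difference of 0.13 for EOW minus SD and 0.05 for 2WM minus SD, and 0.12 in EOW without mouse 4. Gnl3 encodes nucleostemin, a nucleolar GTPase, and Gnl2 a related GTPase of the precursor of the large subunit. Gnl3 (ILMN_2601639) read 3.48, 3.48, 3.50, 4.11 and 3.25 in EOW mice, 3.04, 3.39, 3.08 and 3.21 in 2WM mice, and 3.22, 3.09, 2.69 and 3.30 in SD mice. Only EOW mouse 5 lay within the SD range, and the 2WM and SD mice overlapped. The difference from SD was 0.49 ± 0.17 (SE), or 1.40-fold (unadjusted p = 0.0122, adjusted p = 0.249, exact permutation p = 0.0238), and 0.35 without EOW mouse 4.

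Gnl2 (ILMN_2770686) read 0.75, 0.14, 0.41, 0.56 and 0.73 in EOW mice, 0.42, 0.64, 0.06 and 0.35 in 2WM mice, and 0.23, −0.13, −0.12 and 0.33 in SD mice. Its groups overlapped through EOW mouse 2, and the difference from SD was 0.44 ± 0.16 (SE) with all mice (unadjusted p = 0.0142, adjusted p = 0.260, exact permutation p = 0.0556) and 0.43 without EOW mouse 4, or 0.76 with neqc. Of the 5 members higher than SD in EOW at an unadjusted p below 0.05, its difference moved least when that liver was left out. A second Gnl2 probe, ILMN_2798753, differed from SD by 0.32 with EOW mouse 4 (unadjusted p = 0.0519) and 0.42 without it (unadjusted p = 0.00853).

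Rrp1b, a nucleolar partner of the PP1 phosphatase, read 0.57, 0.67, 0.53, 2.28 and 1.06 at ILMN_2595283 in EOW mice, 0.32, 0.59, 0.12 and −0.01 in 2WM mice, and 0.69, 0.47, 0.14 and 0.16 in SD mice. EOW mouse 4 stood more than 1 unit above every other mouse. The difference from 2WM was 0.77 ± 0.31 (SE) with it (unadjusted p = 0.0266, adjusted p = 0.397) and 0.45 without it. Bop1 and Pes1, partners in the PeBoW complex that matures the 28S and 5.8S RNAs, differed from SD by 0.21 and −0.04 in EOW and by 0.07 and 0.17 in 2WM, with no adjusted p below 0.4 over all mice. Without EOW mouse 4, Pes1 was the 1 member lower than 2WM in EOW at an unadjusted p below 0.05 (−0.38, unadjusted p = 0.0220). The third partner, Wdr12, was not detected. The 3 probes of Nop2 differed from SD by −0.10 to −0.04 in EOW and by −0.13 to −0.09 in 2WM.

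In the small subunit processome and 40S maturation, 20 probes for 15 of 20 genes had a median difference of 0.05 for EOW minus SD and −0.04 for 2WM minus SD, and −0.02 in EOW without mouse 4. Nop14, a processome component, read 0.90, 0.63, 0.54, 1.07 and 0.55 in EOW mice, 0.53, 0.82, 0.30 and 0.26 in 2WM mice, and 0.49, 0.23, −0.06 and 0.50 in SD mice. The EOW and SD mice did not overlap, with 0.54 as the lowest EOW and 0.50 as the highest SD level. The difference from SD was 0.45 ± 0.16 (SE), or 1.36-fold (unadjusted p = 0.0152, adjusted p = 0.262), with an exact permutation p of 0.00794, the smallest that 5 against 4 mice can give, which is not adjusted for the number of probes. It was 0.37 without EOW mouse 4, and 0.73 with neqc. Nop14 and Mybbp1a were the 2 members with EOW wholly above SD (3.08%, against 1.75% of all probes), and 0 lay wholly below (against 2.4%).

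**Figure D3:**
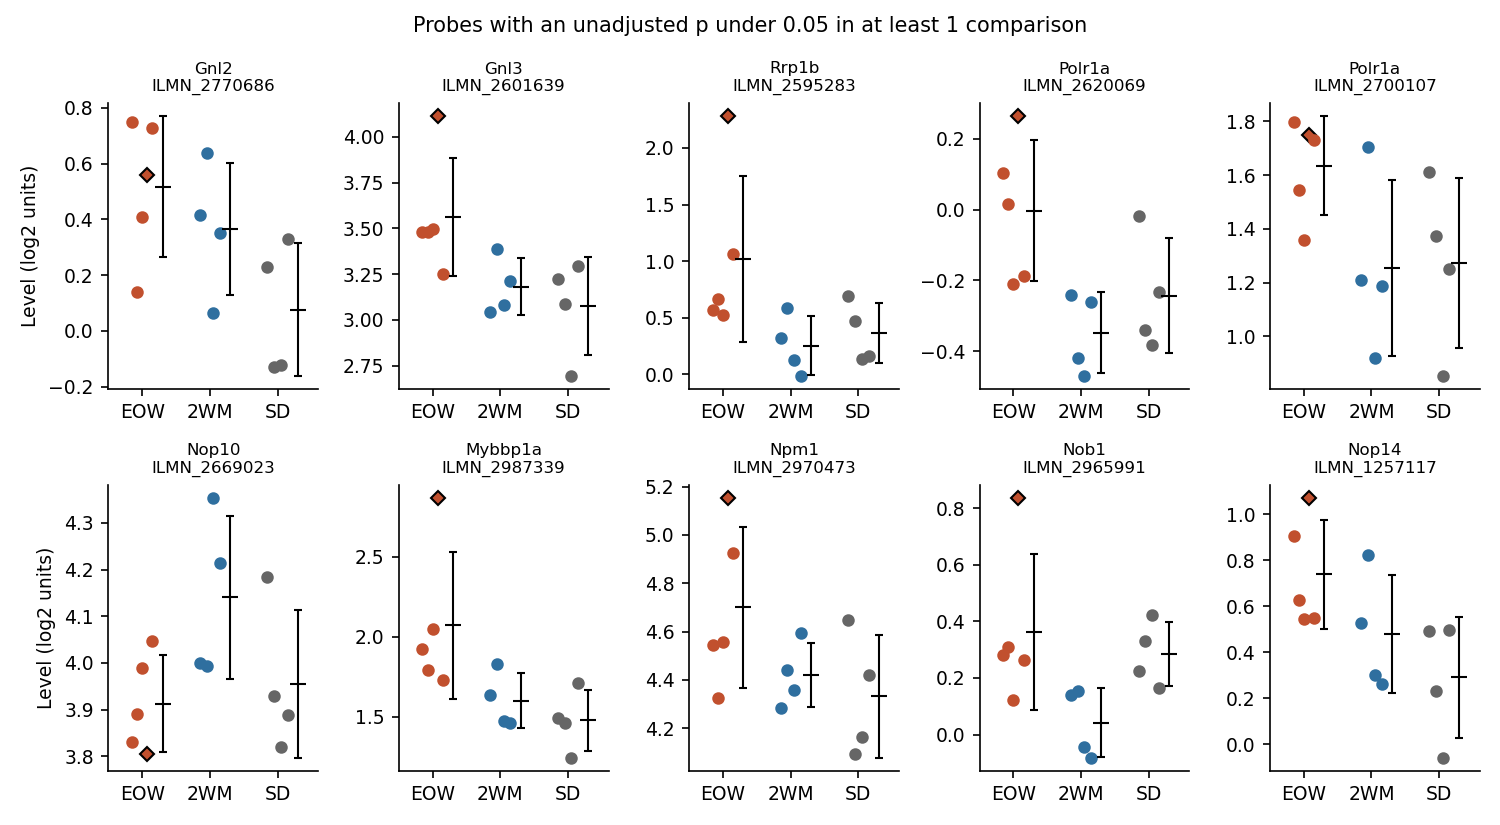
Levels (vertical axes, log2 units relative to the array mean, each panel with its own scale) of the 10 member probes with an unadjusted p below 0.05 in at least 1 comparison, for EOW, 2WM and SD mice; points are mice, the black-edged diamond is EOW mouse 4, and bars give mean ± SD. EOW lies wholly above SD in the Mybbp1a and Nop14 panels and wholly above 2WM in the left Polr1a panel.

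Nob1 encodes the nuclease that makes the last cut of the 18S RNA, and its mean was lowest in the 2WM mice. At ILMN_2965991 it read 0.28, 0.31, 0.12, 0.83 and 0.26 in EOW mice, 0.14, 0.15, −0.04 and −0.08 in 2WM mice, and 0.22, 0.33, 0.42 and 0.16 in SD mice. The 2WM mice lay wholly below the SD mice, with 0.15 as the highest 2WM and 0.16 as the lowest SD level, at a difference of −0.24 ± 0.14 (SE) (unadjusted p = 0.100, adjusted p = 0.872, exact permutation p = 0.0286, the smallest that 4 against 4 mice can give). Its second probe differed from SD by −0.02. The difference of EOW from 2WM was 0.32 (unadjusted p = 0.0288, adjusted p = 0.411), and 0.20 without EOW mouse 4. The only other member with 2WM wholly below SD was Utp25 at ILMN_2612564 (−0.20, adjusted p = 0.870), whose other probes differed by 0.14 and −0.13. This makes 2 members (3.08%, against 3.66% of all probes), and 0 lay wholly above (against 2.16%).

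Imp3 and Imp4 belong to the U3 particle of the processome. Imp3 read 4.44, 4.20, 4.09, 3.82 and 4.57 in EOW mice, 4.09, 4.06, 4.06 and 3.95 in 2WM mice, and 3.98, 4.00, 3.77 and 4.09 in SD mice. EOW mouse 4 was here the lowest EOW mouse, and the difference from SD was 0.26 with it (unadjusted p = 0.0747) and 0.36 without it (unadjusted p = 0.00636, adjusted p = 0.218). Utp6 and Utp23, processome factors that were not among the called members with all mice, were lower than SD at an unadjusted p below 0.05 without EOW mouse 4, by −0.29 (unadjusted p = 0.0398) and −0.26 (unadjusted p = 0.0152). Rrp12, which helps to export the 40S precursor, averaged 1.03 ± 0.70 in EOW, 0.68 ± 0.19 in 2WM and 0.49 ± 0.45 in SD mice, with EOW mouse 4 at 2.17.

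The probes of the 60S factor Ebna1bp2 had differences from SD of −0.08, 0.28 and 0.01 in EOW, and Rrp15 differed by 0.13. The Ebna1bp2 probe at −0.08, ILMN_1248210, passed the filter through its SD arrays alone, so its sign in EOW is tied to the filter. This probe and the one at 0.01 were dim, with SD means of −0.53 and −0.44. The lowest level of all detected probes was −0.74 and the median 0.71. The split between the Ebna1bp2 probes therefore says little about how far probes disagree. Of the remaining processome members, Utp11, Nol10, Nol11, Nop9 and Utp4 differed from SD by 0.03 to 0.23 in EOW with EOW mouse 4 and by −0.10 to 0.06 without it, and by −0.18 to 0.18 in 2WM.

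The particles that modify ribosomal RNA showed no member with an adjusted p below 0.4. Of the box C/D particle, the methyltransferase Fbl (fibrillarin) read 2.27, 2.56, 2.34, 3.17 and 2.06 in EOW mice, 2.26, 2.39, 2.09 and 2.12 in 2WM mice, and 2.17, 2.35, 2.41 and 2.07 in SD mice. EOW mouse 4 was the highest of all 13 and the other EOW mice spanned the SD range, so that the difference from SD was 0.23 with it and 0.06 without it. Its partners Nop56 and Nop58 differed from SD by 0.16 and 0.30 with EOW mouse 4 and by −0.03 and 0.13 without it. Of the box H/ACA particle, which converts uridine to pseudouridine, the catalytic Dkc1 was not detected. Gar1 averaged 1.91 ± 0.40 in EOW, 1.66 ± 0.30 in 2WM and 1.58 ± 0.30 in SD mice, a difference of 0.33 in EOW against SD with EOW mouse 4 and 0.18 without it.

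Nop10, the smallest core protein of the H/ACA particle, ran the other way from most members in EOW against 2WM. It read 3.83, 3.89, 3.99, 3.81 and 4.05 in EOW mice, 4.00, 3.99, 4.35 and 4.21 in 2WM mice, and 4.18, 3.93, 3.82 and 3.89 in SD mice. The groups overlapped and the difference was −0.23 ± 0.10 (SE) (unadjusted p = 0.0479, adjusted p = 0.464) or −0.20 without EOW mouse 4 (unadjusted p = 0.0872).

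The RNA exosome, with 8 of 10 genes detected, had its smallest spread between mice in Exosc7. Exosc7, a protein of the ring, averaged 3.35 ± 0.06 in EOW, 3.37 ± 0.06 in 2WM and 3.30 ± 0.15 in SD mice, with a 95% interval of −0.12 to 0.23 for EOW minus SD and −0.12 to 0.25 for 2WM minus SD. Exosc4, another ring protein, differed from 2WM by 0.19 in EOW (unadjusted p = 0.0576, adjusted p = 0.491), with EOW levels of 1.51 to 1.76 and 2WM levels of 1.43 to 1.55. Exosc8 averaged 1.14 ± 0.29 in EOW, 0.97 ± 0.21 in 2WM and 0.78 ± 0.26 in SD mice, and differed from SD by 0.35 in EOW with EOW mouse 4 (unadjusted p = 0.0524) and 0.24 without it. The 2 exosome genes below SD in EOW were Exosc6 and Exosc2. Exosc6 differed by −0.23 with EOW mouse 4 (unadjusted p = 0.0766) and −0.13 without it, and by −0.14 in 2WM. Exosc2 differed by −0.02 with EOW mouse 4 and −0.18 without it, and by −0.13 in 2WM. The median over the 8 genes was 0.09 for EOW minus SD, or 0.05 without EOW mouse 4, and −0.06 for 2WM minus SD.

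Where a gene had several detected probes, these did not always run alike. Of 13 such genes, 8 had the same sign at all their probes in EOW against SD, 8 in 2WM against SD and 6 in EOW against 2WM. In EOW against SD, Ebna1bp2 had mixed signs only through the probe whose sign is tied to the filter. The widest splits were again in EOW mouse 4. The second Gnl3 probe, ILMN_2673441, read −1.36 there and −0.07 or more in the other 12 mice, while the first Gnl3 probe was at its highest of all mice there. Imp4 read −1.33 in EOW mouse 4 and 0.91 to 1.39 in the other EOW mice at ILMN_2724643, while its probe ILMN_1227519 read 2.22 there and 1.66 to 2.23 in the other EOW mice. Both low readings were below the detection limit on that array, and they turned the sign of the EOW difference from SD at these probes, which was −0.24 and −0.33 with EOW mouse 4 and 0.07 and 0.16 without it.

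The spread between mice limited what could be seen. The SD within groups was 0.20 for the median member, the same as the 0.20 of the median detected probe, and the median SE of a difference was 0.13 for EOW minus SD and 0.14 for 2WM minus SD. The 16 member genes without a detected probe, and therefore without a comparison, were Bysl, Dkc1, Exosc3, Exosc9, Nol3, Nol4, Nol4l, Nol9, Nop16, Rrp1, Rrp7a, Rrs1, Utp14b, Utp15, Utp3 and Wdr12.

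Genes of the same pathway that the name pattern leaves out are given for comparison, without a test between the lists. Other ribosome biogenesis genes had 70 detected probes for 52 genes. At an unadjusted p below 0.05, 4 were higher and 1 lower than SD in EOW (against 5.59% and 8.25% of all probes). The median of the 70 was 0.06 with EOW mouse 4 and 0.02 without it. In 2WM 0 were higher and 2 lower (Las1l and Sbds, against 2.23% and 3.71%), with a median of 0.00. All these counts were close to or below the shares of all probes. The 4 higher in EOW were 2 probes of Rsl1d1, a nucleolar protein (0.27 and 0.19), the helicase Ddx54 (0.33) and the methyltransferase Ftsj3 (0.30). The 1 lower in EOW was Wdr18 (−0.31). Without EOW mouse 4, Ftsj3 (0.24, unadjusted p = 0.0742) and the Rsl1d1 probe with the smaller difference (0.17, unadjusted p = 0.0653) no longer had an unadjusted p below 0.05. Sbds, which frees new 60S subunits for translation, was the probe of this list with the smallest p in EOW against 2WM, averaging 3.27 ± 0.12 in EOW, 2.85 ± 0.13 in 2WM and 3.14 ± 0.21 in SD mice (EOW minus 2WM 0.42, unadjusted p = 0.00219, adjusted p = 0.255). Other RNA polymerase I transcription genes had 15 detected probes for 10 genes. At an unadjusted p below 0.05, 2 were higher and 1 lower in EOW than in SD (against 5.59% and 8.25% of all probes). The higher ones were Taf1d of the promoter factor SL1 (0.42 with EOW mouse 4 and 0.35 without it) and Twistnb, a polymerase subunit. Twistnb differed by 0.36 with EOW mouse 4 and by 0.24 without it (unadjusted p = 0.0843). The lower one was a probe of Znrd1, also a subunit (−0.44, and −0.38 without that liver), whose other probes differed by −0.19 and −0.15 with all mice. The second Taf1d probe, ILMN_3162771, differed by 0.29 with EOW mouse 4 and by 0.12 without it. The second Twistnb probe, ILMN_1231779, differed by −0.37 with EOW mouse 4 and by 0.09 without it. The initiation factor Ubtf differed from SD by −0.03 in EOW and −0.16 in 2WM. Of the growth regulators, Myc itself was not among the 3 detected, which were Mtor (−0.06 in EOW against SD), Max (−0.02) and the Myc antagonist Mxd4 (−0.38, unadjusted p = 0.00606, adjusted p = 0.219).

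Ribosomal protein genes encode the proteins that this machinery assembles with the RNA. In the main fit, most of their probes were higher than SD in EOW at an unadjusted p. Of their 61 detected probes, 35 were higher and 0 lower than SD in EOW at an unadjusted p below 0.05 (57.4%, against 5.59% and 8.25% of all probes), with a median of 0.35, and 34 without EOW mouse 4. In 2WM against SD 1 was higher and 0 lower (against 2.23% and 3.71% of all probes), with a median of 0.11. Relative to the SD mean, the median ribosomal protein probe was at 0.61, 0.10, 0.17, 0.49 and 0.44 in EOW mice, 0.25, 0.09, 0.03 and 0.08 in 2WM mice and 0.00, −0.09, −0.16 and 0.25 in SD mice, so that EOW mice 1 and 5 were high here but not for the biogenesis genes. The count depended on scaling and on single mice. It was 27 higher with quantile normalization (against 6.75% of all probes) and 23 with neqc (against 6.71%). It was 23 without SD mouse 2 (against 3.48%) or SD mouse 3 (against 3.42%), and 44 without SD mouse 4 (against 6.25%). With arrays centred on their medians it was 10 higher and 1 lower. In that setting 3 members were higher and 2 lower in EOW against SD, beside 2.59% higher and 14.5% lower of all probes. The difference between the lists was not tested.

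**Figure D4:**
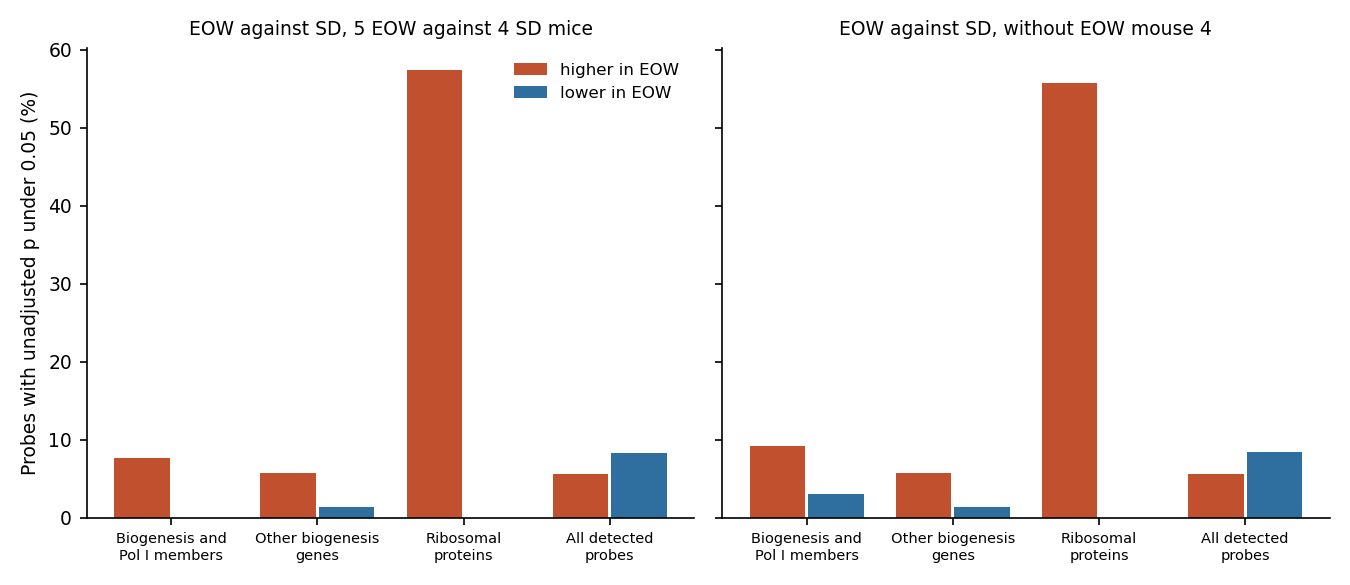
Share of detected probes (vertical axis, percent) with an unadjusted p below 0.05 in EOW against SD, higher (orange) or lower (blue) in EOW, with all mice on the left and without EOW mouse 4 on the right. For members the bars are 7.69% and 0% with all mice, near the 5.59% higher and below the 8.25% lower of all detected probes, and the bar of ribosomal proteins is 57.4%.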

How the data were processed

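Liver RNA of 13 mice was measured on 16 Illumina BeadArrays. The authors deposited the probe intensity of each array, not normalized, with the detection p-value of each probe against the background beads; the submitters' notes name GenomeStudio 2011.1. The authors also deposited a score per probe and array, a Z score of the log2 intensity that matched the intensities of each array (r = 1). Array number limits the precision. The platform annotation names a single gene for 23978 probes, several for 0 and no gene for 1719, and 0 columns of per-sample values were left unused.

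Following the methods of the study, log2 intensities were standardised per array (Z scores). As an added step here, not one of the study, Z scores were multiplied by the arrays' mean SD (1.462) to bring them near a log2 scale. Repeat arrays of a mouse (r = 0.994 to 0.996) were averaged. Probes with a detection p-value below 0.05 on every array of at least 1 group were tested with limma 3.58.1 in R 4.3.3 (lmFit, eBayes, residual df 10), and p-values were adjusted by Benjamini-Hochberg over 11143 probes. Exact two-sided permutation tests were run on single probes, without adjustment. The fit was checked on simulated data. Samples are separate mice by their labels, and replicate numbers were taken as names only.

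Members, lists and tests were chosen with earlier results of these data known. Named were members with an unadjusted p below 0.05 in any comparison, all RNA polymerase I subunits, and in each role the 2 genes with the smallest p and the brightest one; others were named after their values were seen. Utp4 and Utp25 were given their role under their current symbols after their values were seen. Promoters came from RefSeq (GRCm38.p6) and were searched for 3 motifs. Alternatives were quantile normalization, median centring, neqc (offset 16), the deposited scores, no filter, a detection p-value below 0.01, only the groups compared, a replicate block, 1 array per mouse, an intensity trend, array weights, the methods' criteria and leaving out each mouse.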

Additional observations from a re-analysis of the deposited data

Results flagged for a closer look

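Of 69 sets of 4 or 5 mice examined for a value far from the rest, 5 had one, and chance gives about 1 in 20. All 5 were EOW mouse 4. In this liver Polr1e read 0.55, against −0.15 to −0.10 in the other EOW mice. Mybbp1a (ILMN_2987339) read 2.87, against 1.73 to 2.05. Gnl3 (ILMN_2601639) read 4.11, against 3.25 to 3.50. Nob1 (ILMN_2965991) read 0.83, against 0.12 to 0.31. The median member lay 0.39 above the SD mean, against 0.02 to 0.08. The T cell markers that are high in the same liver are given in the report, and their part in these values was not tested.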

How the results depend on the processing

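Adjusted calls stayed at 0 members in all 3 comparisons under each alternative run, and none of the 12 differences with an unadjusted p below 0.05 changed sign. Only 3 of the 12 kept an unadjusted p below 0.05 under all 25 alternatives, those of Gnl2 and Mybbp1a in EOW against SD and of Polr1a (ILMN_2620069) in EOW against 2WM. The smallest adjusted p over the alternatives was 0.127.

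Counts at an unadjusted p below 0.05 moved with the processing, and the cause was not tested. Here and below, a count given without a share of all probes is not a result about the members. In EOW against SD, members higher were 12 with quantile normalization (6.75% of all probes), 12 with neqc (6.71%), 9 with no filter (4.58%), 3 with median centring (2.59%) and 2 by the methods' criteria (1.28%), against 5 as reported (5.59%). Members lower were 1 with quantile normalization (7.58% of all probes), no filter (5.03%) or array weights (9.26%). With median centring 2 were lower (14.5%), against 0 as reported (8.25%). The EOW medians over SD were 0.04 with median centring or array weights and 0.17 with neqc, and neqc also gave the largest differences of Gnl2 (0.76), Nop14 (0.73) and Polr1a against 2WM (0.74). In 2WM against SD, 1 was higher with no filter or array weights (0 as reported, against 2.23% of all probes). Lower were 3 with median centring, when 1265 of all 11143 probes were lower. A further 1 was lower with only the groups compared and 4 with array weights (0 as reported, against 3.71% of all probes). The median was −0.0686 with median centring and −0.02 with array weights. In EOW against 2WM the count lower was 2 with array weights and 0 with quantile normalization, median centring, neqc, the stricter filter, only the groups compared, the first arrays or an intensity trend (1 as reported, against 5.4% of all probes). Median centring moved the median of all probes in 2WM against SD from −0.03 to −0.12, and the share of higher among all probes with an unadjusted p below 0.05 was 15.2%, 6.85% and 65.2% in the 3 comparisons, against 40.4%, 37.5% and 49.3% as reported; quantile normalization gave 48.3% in 2WM against SD.

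The deviations of same-numbered mice correlated at r of −0.38 to 0.33. With so few mice this cannot settle whether the numbers pair mice, and the labels name no pairing. With the replicate block, in which EOW mouse 5 has no partner and adds nothing to the differences, 7 members were higher and 0 lower for EOW minus SD (6.54% and 7.39% of all probes), 0 and 0 for 2WM minus SD, and 5 and 0 in EOW against 2WM, with medians of 0.10, 0.02 and 0.13.

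Leaving out each mouse in turn gave 3 to 12 members higher and 0 to 2 lower in EOW against SD (median 0.06 to 0.13), 0 to 1 and 0 to 2 in 2WM against SD (median −0.02 to 0.05), and 1 to 8 and 0 to 2 in EOW against 2WM (median 0.04 to 0.15). In EOW against SD, 12 were higher without SD mouse 1 (5.79% of all probes), 9 without EOW mouse 3 (5.57%), 8 without EOW mouse 1 (5.07%) or EOW mouse 2 (6.17%), and 3 without SD mouse 3 (3.42%). In EOW against 2WM, 3 were higher without 2WM mouse 1 and 1 without 2WM mouse 3 or 2WM mouse 4, against 6 with all mice (5.26% of all probes). With 4 or 5 mice per group, differences below the intervals given cannot be seen.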
